A study of Mus musculus with 12 samples.

Results

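The nuclear-encoded subunits of the respiratory chain and of ATP synthase were examined in RNA sequencing data of small-intestinal epithelial cells taken from mice 24 h after experimental stroke or sham surgery. Genes were chosen by name from the 15855 genes of the table, outside the mitochondrial chromosome, as names beginning with Ndufa, Ndufb, Ndufc, Ndufs or Ndufv and a number (complex I), Sdha to Sdhd (complex II), Uqcr (complex III), Cox and a number from 4 to 8 (complex IV) or Atp5 (ATP synthase). Of 79 genes that matched, 1 pseudogene (Atp5l2-ps) was left out and 78 remained. They comprised 36 genes of complex I, 4 of complex II, 8 of complex III, 13 of complex IV and 17 of ATP synthase. The rule itself reads names only. A few names do not match the complex they are placed under here. Ndufa4 is now known as a subunit of complex IV, Cox7a2l joins complexes into larger assemblies, and Atp5s and Atp5sl carry the Atp5 name without being part of the ATP synthase rotor or stator.

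The respiratory chain passes electrons from NADH and succinate to oxygen through complexes I to IV of the inner mitochondrial membrane, and ATP synthase uses the resulting proton gradient to make ATP. Complex I oxidises NADH, complex II oxidises succinate, complex III passes electrons from ubiquinol to cytochrome c, and complex IV reduces oxygen. Most subunits are encoded in the nucleus and imported, and a small core of complexes I, III, IV and ATP synthase is encoded by mitochondrial DNA. In the small intestine, absorptive enterocytes use this ATP to drive sodium pumping and nutrient uptake, and mitochondrial activity increases as cells leave the crypt for the villus.

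EpCAM+ epithelial cells (EpCAM is a cell adhesion protein that marks epithelium) were sorted by flow cytometry from the whole small intestine of C57BL6/J mice, with no genetic change named in the labels. Per the methods of the study, mice were male and 8 to 12 weeks old. The pMCAO group (n = 5) had the middle cerebral artery blocked permanently, so blood flow to that part of the brain was not restored, and the sham-operated group (n = 7) had the surgery without the occlusion. Another pMCAO sample that the study describes was not analysed here. Each sample was labelled as a biological replicate. The comparison of the groups asked how the epithelium differs after stroke.

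Total counts per sample ran from 7418730 to 31925579. Taken as the floor, 3 counts equalled 0.094 to 0.404 CPM depending on depth, before scaling by TMM factors. CPM are counts divided by the library's total and brought to a common depth. The CPM values of genes given below are also divided by the library's TMM factor, which ran from 0.5588 to 1.523. On that scale the floor is higher where the factor is under 1 and lower where it is above. The factor was 0.5588 to 0.7924 in sham replicates 1, 2 and 3 and pMCAO replicate 1, so the printed floor is too low for them. No pair of samples of a group matched within sampling noise (the lowest chi-square per degree of freedom was 17.7). The library numbers in the sample titles go from 58 to 68 without a gap, followed by 72, and the labels name no batch. They were divided here into 4 library runs, numbers 58 to 61, 62 to 65, 66 to 68, and 72, with split points taken from an earlier analysis of these data. Whether a run is a day of collection is not known. Run 1 held sham replicates 1, 2 and 3 with pMCAO replicate 1, run 2 held 2 samples of each group, run 3 held 1 sham and 2 pMCAO samples, and run 4 held sham replicate 7 alone. The libraries of run 1 stood apart, with 13386 to 14712 genes detected against 15343 to 15766 in the others. All 8 enterocyte markers were present, with a summed level of 13725 to 21551 CPM in sham and 15771 to 42187 CPM in pMCAO samples. The 42187 CPM was that of pMCAO replicate 1, in run 1, and the libraries outside run 1 reached at most 21852 CPM. The summed leukocyte markers reached at most 512 CPM, and the stroma (2 of 8 in the table), muscle (1 of 4) and erythroid (2 of 4) markers at most 6.77, 9.998 and 25.1 CPM. Goblet cell markers summed to 4082 to 8006 CPM in run 1 and 20332 to 54546 CPM elsewhere, and crypt markers to 13.03 to 37.4 CPM and 35.5 to 178 CPM.

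All 78 subunit genes passed the filter on low counts, which 14462 of the 15855 genes passed. Their levels, compared per kb of the longest annotated protein-coding transcript, spanned a wide range within every complex. The median over genes was 14.02 CPM per kb for complex I, 33.8 for complex II, 28.7 for complex III, 47.3 for complex IV and 43.2 for ATP synthase. In complex I the highest level was that of Ndufa4 (56.8 CPM per kb) and the lowest that of the accessory subunit Ndufb2 (1.64). In complex II, Sdhb, the iron-sulfur subunit, was highest (56.6) and Sdhc, a membrane anchor, lowest (10.4). In complex III, the small accessory subunit Uqcr10 was highest (94.0) and Uqcrb lowest (19.4). In complex IV, Cox6a1 was highest (133) and Cox7c lowest (11.3). Atp5b, the catalytic beta subunit of ATP synthase, had the highest level of the 78 (216 CPM per kb), and Atp5g2 the lowest (0.547). The order depends on the length used. Per kb of all annotated exons, the highest level of the 78 was that of Cox6a1 (108), followed by Atp5b (97.6), while Atp5g2 stayed the lowest (0.246). On that scale the highest gene was Ndufa13 (42.8) in complex I, where Ndufa4 had 25.1, and Sdhd (36.2) in complex II, where Sdhb had 28.8. The lowest gene became Ndufb4 (1.07) in complex I and Uqcrc1 (11.2) in complex III.

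**Figure D1:**
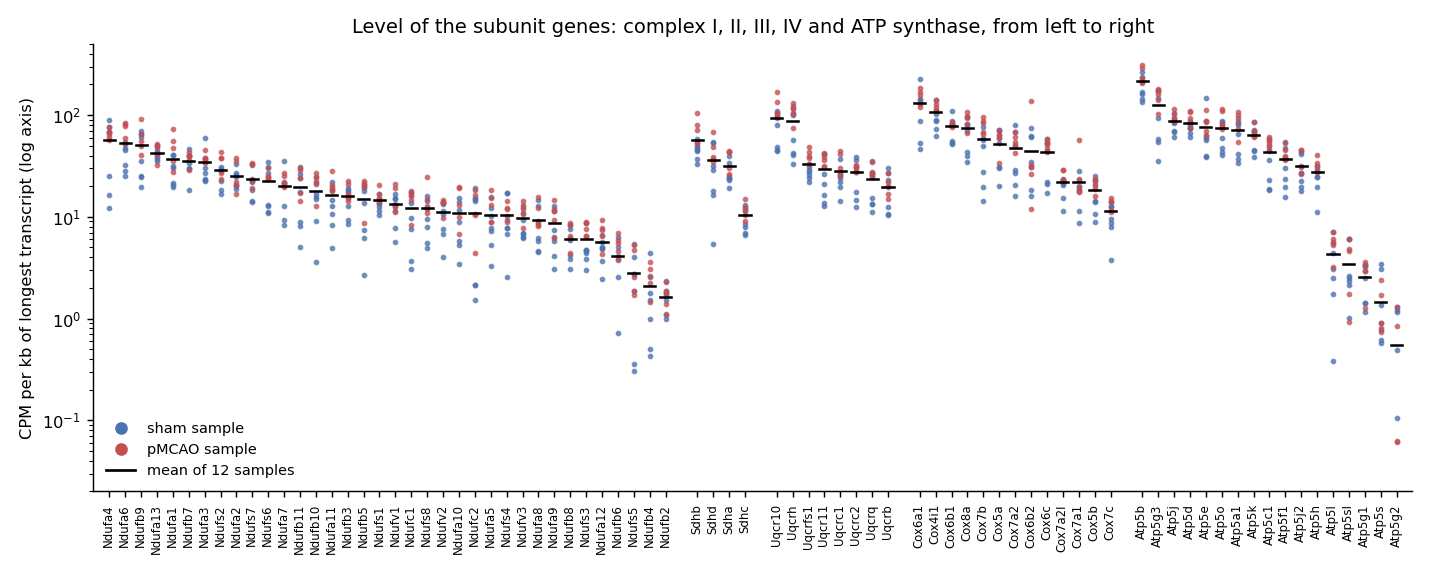
Level of each of the 78 subunit genes in CPM per kb of the longest annotated protein-coding transcript (log axis). Each sample is 1 point, coloured by group, and the mean of the 12 samples is a bar. Values under 0.02, including 0, are not drawn; ATP synthase spans the widest range, from Atp5g2 (0.547) to Atp5b (216).

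Where a subunit has more than 1 isoform gene, the levels per kb were unequal. The broadly expressed Cox6a1 (133) and Cox4i1 (106) are each the only form of their subunit in the table, and Cox4i2, Cox6a2, Cox7b2, Cox8b, Cox8c and Ndufa4l2 were not analysed here. Cox6b1, the common form of its subunit, averaged 77.3 CPM per kb, and Cox6b2, known as the testis form, averaged 44.8. The Cox6b2 average rested in part on 1 library, since its level was 80.7 CPM in pMCAO replicate 1, 7.04 to 18.8 CPM in the other pMCAO samples and 9.27 to 44.0 CPM in sham samples. Cox7a2 (47.3) stood above Cox7a1 (22.04), known as the heart and muscle form, and Cox7a2l (22.1). The ring subunit c of ATP synthase has 3 genes that encode the same mature protein, and Atp5g3 (125) stood far above Atp5g1 (2.55) and Atp5g2 (0.547). The size of the gap to Atp5g1 depends on length, since the longest protein-coding transcript is 4715 bases for Atp5g1 and 723 for Atp5g3. Without division by length, the sham means were 11.1 CPM for Atp5g1 and 76.0 CPM for Atp5g3. In each of the 12 samples the level of Atp5g3 in CPM was above that of Atp5g1. Atp5j2 and Atp5l, a pair of small membrane subunits, averaged 31.5 and 4.35 CPM per kb.

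The levels of some genes are uncertain because other annotated genes share their sequence. Of the 78 genes, 44 shared at least 1 exact stretch of 50 bases, read on either strand, with another annotated gene. A stretch was shared with a pseudogene by 32. The 44 include genes whose exons overlap the other gene at the same place, such as Ndufb6 with Smim27 and Ndufa13 with Tssk6. The largest shared part of a transcript was 84.8% in Atp5l, which shares sequence with 12 pseudogenes, followed by Atp5o (50.3%, including a stretch shared with a second annotated gene of the same name that overlaps it), Atp5h (47.9%) and Uqcrb (43.4%). The 14 genes with at least 25% shared had a median level of 14.7 CPM per kb, against 27.7 for the other 64. Among the 14 are Uqcrb, Ndufb4 (37.0%) and Cox7c (27.9%), each named above as lowest in its complex by at least 1 of the lengths. Exons of 24 of the 78 genes overlap a gene on the opposite strand, and some of these genes are also among the 44. Whether the counting used strand is not given in the sources used here. How far either affected a level was not tested.

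Most subunit genes had a slightly higher level in post-stroke than in sham-operated samples, but none passed the adjustment for multiple testing. Fold changes of single genes are given ± SE. The median log2 fold change of pMCAO over sham was 0.41 over the 78 genes, beside 0.06 over all genes tested. The log2 fold change was above 0 for 72 of 78, beside 55.2% of all genes. In limma-voom, 0 of 78 had a p of at most 0.05 after Benjamini-Hochberg adjustment, as did 0% of all genes. None of the 78 reached it in edgeR, beside 0% of all genes, or in DESeq2, beside 0.581%. At an unadjusted p under 0.05, 10 were higher in edgeR, beside 3.04% of all genes, and 8 in DESeq2, beside 3.29%. An unadjusted p under 0.05 was found for 11 of the 78 with a higher level in pMCAO (14.1%), beside 4.66% of all genes, and for 0 with a lower level, beside 3.77% of all genes. In no gene of the 78 did every pMCAO value lie above every sham value, as it did for 0.311% of all genes. In bulk samples like these, fewer cells of a type and less RNA per cell cannot be told apart.

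By complex, the median log2 fold change was 0.40 for complex I, 0.57 for complex II, 0.52 for complex III, 0.39 for complex IV and 0.37 for ATP synthase. With library run as a covariate it was 0.34, 0.27, 0.46, 0.32 and 0.32 in the same order, so complex II, of 4 genes, went from the highest median to the lowest. The 11 genes divided into 2 of 36 in complex I, 2 of 4 in complex II, 3 of 8 in complex III, 1 of 13 in complex IV and 3 of 17 in ATP synthase. All genes had a share of 4.66%, and the shares of complexes I and IV were the lowest of the complexes. The count of 11 depended on single libraries, and the share of all genes moved with it. It was 5 without sham replicate 1 (beside 3.35% of all genes) and 6 without sham replicate 2 or 3 (3.51% in each). It was 25 without sham replicate 6 (5.38%) and 18 without sham replicate 7 (6.11%), each of 77 genes tested. It was 21 without pMCAO replicate 1 (8.36%), 6 without pMCAO replicate 4 (3.67%) and 5 without pMCAO replicate 5 (3.57%). The median over the 78 genes fell to 0.27 without sham replicate 1.

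**Figure D2:**
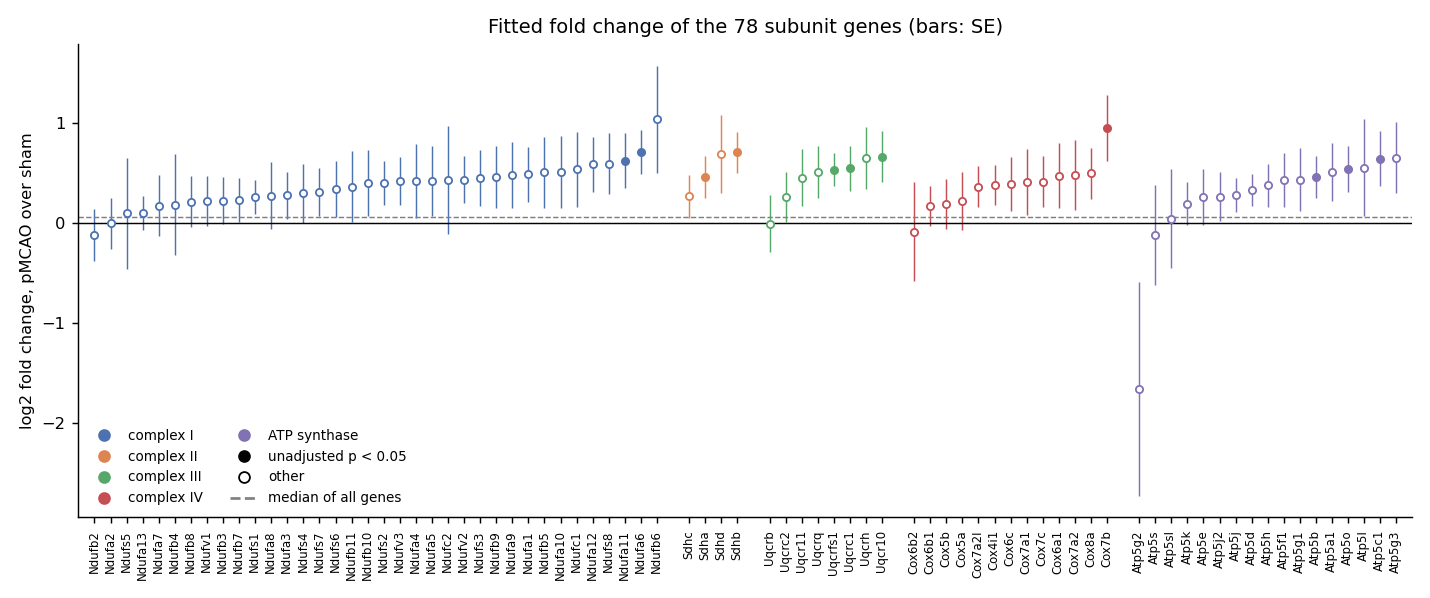
Fitted log2 fold change of pMCAO over sham (limma-voom, 7 sham and 5 pMCAO samples) of each of the 78 subunit genes by complex, with bars for 1 SE. Filled points are the 11 genes with an unadjusted p under 0.05, all above 0, and the dashed line is the median of all genes tested (0.06).

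In complex I, 34 of 36 genes had a log2 fold change above 0. Ndufa6 (ENSMUSG00000022450, chr15:82350140-82354322, minus strand on GRCm38), an accessory subunit of the LYR protein family, had the smallest p of the complex. Its level was 49.6, 35.1, 31.4, 48.3 and 46.0 CPM in pMCAO replicates 1 to 5, and the sham values had a lowest, median and highest of 14.96, 26.6 and 32.4 CPM. Only pMCAO replicate 3 fell within the sham range. The log2 fold change was 0.71 ± 0.22 (unadjusted p = 0.00498, adjusted p = 0.380) in limma-voom. Ndufa11, a membrane-arm accessory subunit, measured 17.004, 17.9, 18.9, 16.4 and 25.8 CPM in pMCAO samples against a lowest, median and highest of 4.58, 11.8 and 20.3 CPM in sham samples, and its log2 fold change was 0.62 ± 0.27 (adjusted p = 0.571). Here the ranges overlapped, and pMCAO replicate 5 alone lay above every sham sample.

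A pair of core subunits of complex I had smaller fold changes. Ndufs1, the largest iron-sulfur subunit, measured 41.0, 38.9, 37.4, 44.7 and 54.2 CPM in pMCAO samples and 27.99, 35.3 and 44.6 CPM (lowest, median, highest) in sham samples. Its log2 fold change was 0.26 ± 0.17 (adjusted p = 0.675). Ndufv1, which binds NADH, had pMCAO values of 18.7, 20.8, 21.1, 31.6 and 34.7 CPM and sham values of 9.33, 22.4 and 27.5 CPM, a log2 fold change of 0.22 ± 0.25 (adjusted p = 0.821). For both the difference was within the spread of the samples. The largest fitted value of the 78 was that of Ndufb6, with a log2 fold change of 1.04 ± 0.54 (adjusted p = 0.609), a gene of low level that measured 2.53 to 4.57 CPM in pMCAO samples and 0 to 4.20 CPM in sham samples.

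For Ndufa4 the sham values divided by library run. It measured 15.4, 9.95 and 7.48 CPM in the sham samples of run 1, 41.5 to 54.0 CPM in the other sham samples, and 41.5, 34.4, 37.5, 39.4 and 46.8 CPM in pMCAO samples. The pMCAO values lay above the first of these ranges and below or within the second. Its log2 fold change was 0.42 ± 0.37 (adjusted p = 0.762) with all samples and -0.22 without run 1 (adjusted p 0.817).

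In complex II, the only complex encoded wholly in the nucleus, all 4 genes had a log2 fold change above 0. Sdhb (ENSMUSG00000009863, chr4:140961203-140979193, plus strand) had the smallest p of all 78 genes. It measured 82.3, 61.2, 60.6, 91.0 and 121 CPM in pMCAO samples, and the lowest, median and highest sham values were 37.7, 52.2 and 65.9 CPM. The groups overlapped only between pMCAO replicates 2 and 3 and sham replicate 3. The log2 fold change was 0.71 ± 0.21 (unadjusted p = 0.00336, adjusted p = 0.347). Sdha, the flavin-bearing catalytic subunit, measured 75.7, 87.5, 126, 127 and 128 CPM against 56.2, 69.7 and 115 CPM in sham samples, a log2 fold change of 0.46 ± 0.21 (adjusted p = 0.583). For the membrane anchors Sdhc and Sdhd, pMCAO replicate 4 alone lay above every sham sample. Sdhc measured 29.1, 32.7, 39.7, 47.4 and 36.7 CPM against 20.9, 27.2 and 41.2 CPM in sham samples, a log2 fold change of 0.26 ± 0.21 (adjusted p = 0.736). Sdhd measured 42.8, 45.2, 59.7, 83.7 and 47.3 CPM against 6.64, 35.9 and 67.1 CPM, a log2 fold change of 0.68 ± 0.39 (adjusted p = 0.644). The lowest Sdhd value, 6.64 CPM, was that of sham replicate 2 in run 1.

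In complex III, 7 of 8 genes had a log2 fold change above 0. Uqcrfs1 (ENSMUSG00000038462, chr13:30540308-30545362, minus strand), the Rieske iron-sulfur protein, measured 54.3, 52.2, 45.1, 65.5 and 58.5 CPM in pMCAO samples and 29.9, 37.4 and 45.2 CPM (lowest, median, highest) in sham samples. Only pMCAO replicate 3 lay below the highest sham value. Its log2 fold change was 0.53 ± 0.16 (unadjusted p = 0.00508, adjusted p = 0.380). Uqcr10 measured 73.5, 40.7, 45.3, 46.0 and 57.8 CPM against 19.1, 34.6 and 47.2 CPM, a log2 fold change of 0.66 ± 0.25 (adjusted p = 0.510). The core protein Uqcrc1 measured 45.3, 41.5, 50.4, 73.7 and 68.7 CPM against 23.7, 39.4 and 60.5 CPM, a log2 fold change of 0.55 ± 0.23 (adjusted p = 0.543). For both genes the highest value was in a pMCAO sample and the lowest in a run 1 sham sample.

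In complex IV, 12 of 13 genes had a log2 fold change above 0 and 1, Cox7b, had an unadjusted p under 0.05. Cox7b (ENSMUSG00000031231, chrX:106015700-106022450, plus strand), a small subunit, measured 84.5, 65.7, 68.9, 95.5 and 86.7 CPM in pMCAO samples and 14.2, 49.9 and 77.0 CPM (lowest, median, highest) in sham samples. Its 3 lowest values, 19.7, 27.6 and 14.2 CPM, were those of the run 1 sham samples. The log2 fold change was 0.95 ± 0.33 (unadjusted p = 0.0116, adjusted p = 0.470). Cox8a, also a small membrane subunit, measured 37.0, 44.6, 54.2, 52.1 and 59.6 CPM against 18.9, 38.2 and 52.4 CPM, a log2 fold change of 0.50 ± 0.25 (adjusted p = 0.608). Cox4i1, a regulatory subunit that binds ATP, measured 108, 84.5, 83.0, 92.3 and 98.0 CPM against 47.9, 69.2 and 107 CPM, a log2 fold change of 0.38 ± 0.20 (adjusted p = 0.612). The ranges of both genes overlapped between the groups. Cox5a measured 21.8, 38.5, 40.7, 38.8 and 44.6 CPM against 13.1, 34.1 and 46.3 CPM, a log2 fold change of 0.22 ± 0.29 (adjusted p = 0.856) that turned to -0.02 without run 1 (adjusted p 0.988). In both groups the Cox5a values of run 1 were the lowest.

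In ATP synthase, 15 of 17 genes had a log2 fold change above 0. The catalytic head is built from Atp5a1 (alpha), Atp5b (beta) and Atp5c1 (gamma), and Atp5o couples it to the stator. Atp5b measured 445, 398, 414, 563 and 595 CPM in pMCAO samples and 259, 323 and 513 CPM (lowest, median, highest) in sham samples, a log2 fold change of 0.46 ± 0.21 (adjusted p = 0.583). Atp5c1 measured 79.9, 85.9, 99.8, 106 and 94.2 CPM against 31.9, 62.5 and 102 CPM, a log2 fold change of 0.64 ± 0.27 (adjusted p = 0.553). Both had an unadjusted p under 0.05, and in both the run 1 sham samples were the 3 lowest. Atp5o (ENSMUSG00000022956, chr16:91925214-91931687, minus strand) measured 68.5, 66.5, 61.5, 93.0 and 95.9 CPM against 34.0, 50.4 and 72.6 CPM, with a log2 fold change of 0.54 (SE 0.23) and the smallest p of the complex (0.0304 unadjusted, 0.552 adjusted). Atp5a1 measured 144, 194, 235, 285 and 269 CPM against 89.8, 174 and 250 CPM, a log2 fold change of 0.51 ± 0.29 (adjusted p = 0.639). The lowest fitted value of the 78 genes was that of Atp5g2 (-1.66, SE 1.07), which stayed under 1 CPM in every library, so its fold depends on the prior count.

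On average, the sham samples of run 1 lay further from the other sham samples than the pMCAO samples lay from the sham samples. The split points of the runs came from an earlier analysis of these data. This gap is therefore a description and not a test of a run effect. In the mean log2 CPM of the 78 genes, the 3 sham samples of run 1 lay between 3.51 and 3.62, the other 4 sham samples between 4.13 and 4.66, and the pMCAO samples between 4.35 and 4.83. The sham means were 3.57 ± 0.057 (SD, n = 3) in run 1 and 4.48 ± 0.25 (SD, n = 4) elsewhere. The pMCAO sample of run 1 (4.47) lay within the range of the other pMCAO samples. A lower mean in run 1 than in the other libraries was found for 74 of the 78 genes, beside 58.8% of all genes. In 44 of the 78 every run 1 sham value lay below every other sham value, beside 17.3% of all genes. Fewer detected genes, a lower goblet marker sum and a lower crypt marker sum moved with the same libraries. Mitochondrial ribosomal RNA also moved with them, taking 34.8% to 54.5% of the counts in run 1 and 14.6% to 35.2% elsewhere. The part of these in the result was not tested.

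**Figure D3:**
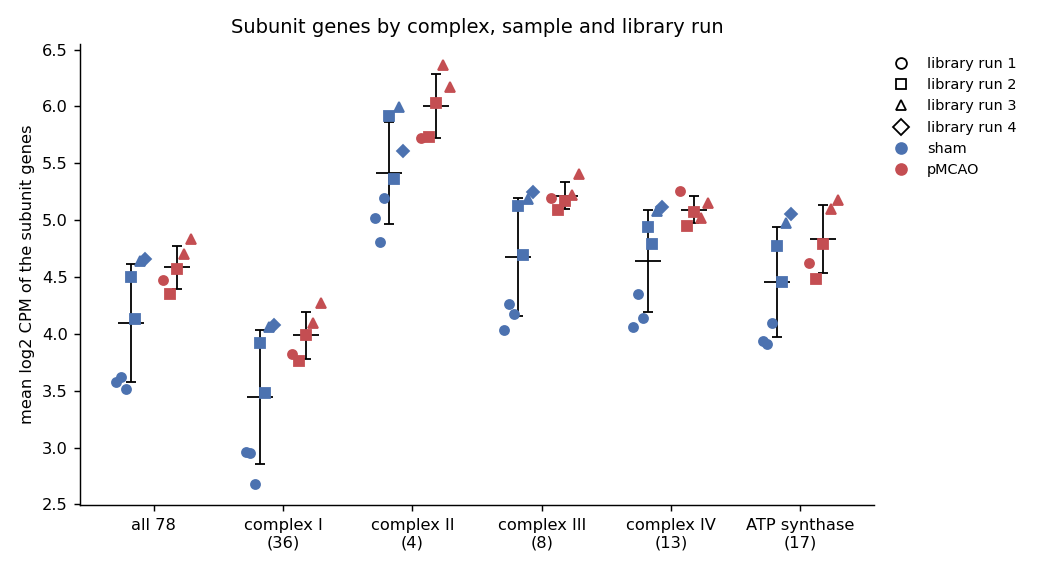
Mean log2 CPM of the subunit genes of each complex in each sample, with 7 sham and 5 pMCAO points per complex, the library run as the marker shape, and the group mean with 1 SD in black. In every complex the 3 run 1 sham samples (circles) are the 3 lowest sham values, and all 5 pMCAO samples lie above them.

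Within runs the difference between the groups was unequal. The mean over the 78 genes was 0.49 higher in pMCAO than in sham with all samples on the log2 scale. It was 0.90 higher within run 1 (1 pMCAO and 3 sham samples), 0.15 within run 2 and 0.12 within run 3. By complex, the difference within runs 1, 2 and 3 was 0.96, 0.18 and 0.13 for complex I, and 0.71, 0.24 and 0.27 for complex II. It was 1.04, 0.22 and 0.13 for complex III, 1.07, 0.15 and 0.0073 for complex IV, and 0.64, 0.020 and 0.17 for ATP synthase. Each of these differences was above 0, and the value within run 1 was the largest in every complex.

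Of the 78 genes, 35 were higher in pMCAO within each of runs 1, 2 and 3, beside 16.9% of all genes. They included 10 of the 11 genes with an unadjusted p under 0.05, the exception being Atp5b, at -0.09 within run 2. Those 11 were picked by the pooled fit of the same samples, so this count is not independent of that fit. Sdhb differed by 0.68, 0.33 and 1.00 within the 3 runs and Uqcrfs1 by 0.73, 0.21 and 0.55, while Cox7b differed by 2.09, 0.20 and 0.24 and Uqcr10 by 1.88, 0.17 and 0.28. Sdhb and Uqcrfs1 were thus higher in pMCAO in runs 1 and 3 and by less in run 2, and Cox7b and Uqcr10 mainly in run 1. Run 1 has 1 pMCAO sample and run 3 has 1 sham sample, so each of these differences rests on few samples.

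In a fit with the library run as a covariate, sham replicate 7, alone in run 4, carries no weight on the difference. In this fit the median log2 fold change was 0.32 over the 78 genes and 0.01 over all genes. The log2 fold change was above 0 for 73 of the 78, beside 51.3% of all genes. An adjusted p of at most 0.05 was reached by 0 of the 78 in limma-voom, beside 0.477% of all genes, by 0 in edgeR, beside 0.159%, and by 0 in DESeq2, beside 1.32%, with the same covariate. At an unadjusted p under 0.05, 16 were higher in edgeR, beside 4.99% of all genes, and 14 in DESeq2, beside 5.61%. An unadjusted p under 0.05 with a higher level in pMCAO was found for 17 of the 78 (21.8%), beside 6.58% of all genes, and for 0 with a lower level, beside 6.17% of all genes. These 17 included 5 of the 8 genes of complex III, with Uqcrh, the hinge protein, at 0.55 (SE 0.18, adjusted p 0.211). The smallest adjusted p was again that of Sdhb (log2 fold change 0.70, SE 0.18, adjusted p 0.101). Without the 4 libraries of run 1, the median over the 78 genes was 0.12, and 3 genes with a higher level had an unadjusted p under 0.05, beside 3.99% of all genes, as did 1 with a lower level, beside 3.59%.

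**Figure D4:**
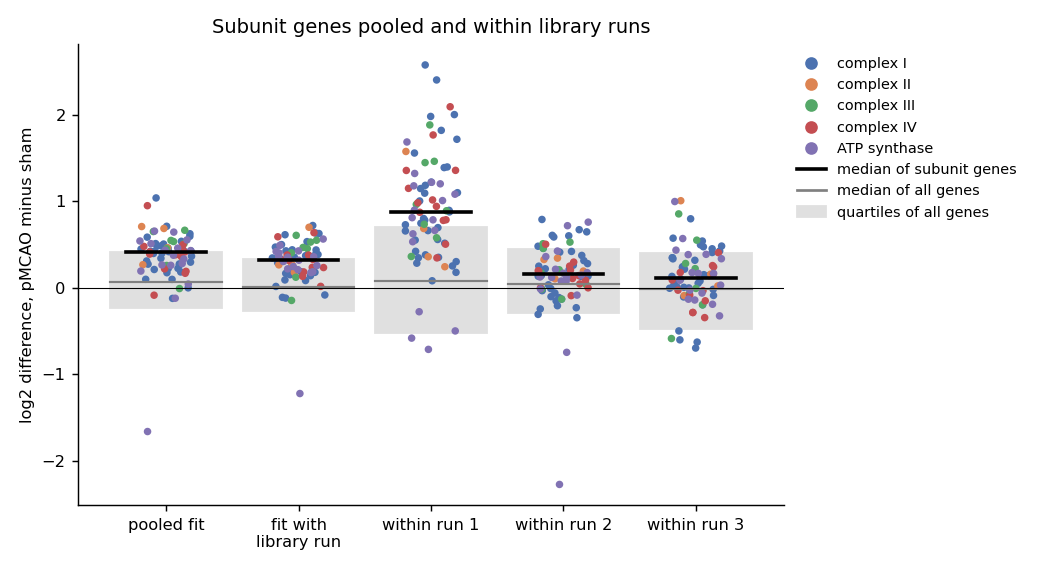
Log2 difference of pMCAO minus sham for the 78 subunit genes (points, coloured by complex) in the pooled fit, in the fit with library run, and within runs 1, 2 and 3, with the median of the 78 (black), and the median (grey line) and quartiles (grey box) of all genes tested. The median of the 78 is 0.41, 0.32, 0.87, 0.16 and 0.12 from left to right.

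The nuclear-encoded genes and the 13 subunit genes of mitochondrial DNA build the same complexes, but their shares of the counts differed between the groups in unlike ways from run to run. The 78 nuclear genes took 0.257% ± 0.149 of the counts in sham samples (SD, n = 7) and 0.389% ± 0.0843 in pMCAO samples (SD, n = 5). Sham replicate 3 had the lowest share, 0.102% (95% Wilson interval 0.0994 to 0.104), and sham replicate 6 the highest, 0.490% (0.4876 to 0.4929). The 13 mitochondrial genes took 10.8% ± 2.86 (SD, n = 7) and 13.4% ± 3.16 (SD, n = 5). The difference for the nuclear genes was 0.122 percentage points within run 1, 0.149 within run 2 and -0.0709 within run 3, and that for the mitochondrial genes was 2.41, -1.26 and 3.80. These shares are divided by a total that includes mitochondrial ribosomal RNA. With that RNA left out of the total, the difference for the nuclear genes was 0.144, 0.0986 and 0.00744 percentage points within runs 1, 2 and 3, so the negative value of run 3 was not kept. For the mitochondrial genes it was 0.666, -5.08 and 7.59, and the sign within run 2 stayed negative.

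Counts of mitochondrial subunit genes per count of nuclear subunit genes were 53.7 ± 25.6 in sham samples (SD, n = 7) and 35.6 ± 9.96 in pMCAO samples (SD, n = 5). The ratio was 48.0 to 89.2 in the 4 libraries of run 1 and 21.99 to 60.4 in the other 8. In limma-voom the median log2 fold change of the 13 mitochondrial genes was 0.07, beside 0.41 for the 78 nuclear genes, and 0 of the 13 had an unadjusted p under 0.05. Each of the 13 weighs the same here and in the counts that follow, whatever its level. Sham means were 1.78 CPM for mt-Atp8, 3.41 for mt-Co3, 3.70 for mt-Atp6, 6.97 for mt-Co2 and 9.49 for mt-Nd4l. The others ran from 393 (mt-Nd3) to 54335 (mt-Co1), so the shares and the ratio rest on these. Whether the low values of the former genes reflect the RNA present or the way reads were counted was not tested. Compared by log2 CPM within runs, 0 of the 13 were higher in pMCAO in run 2 and 13 of 13 in run 3. For the nuclear genes the same counts were 56 and 50 of 78, beside 53.1% and 48.8% of all genes.

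**Figure D5:**
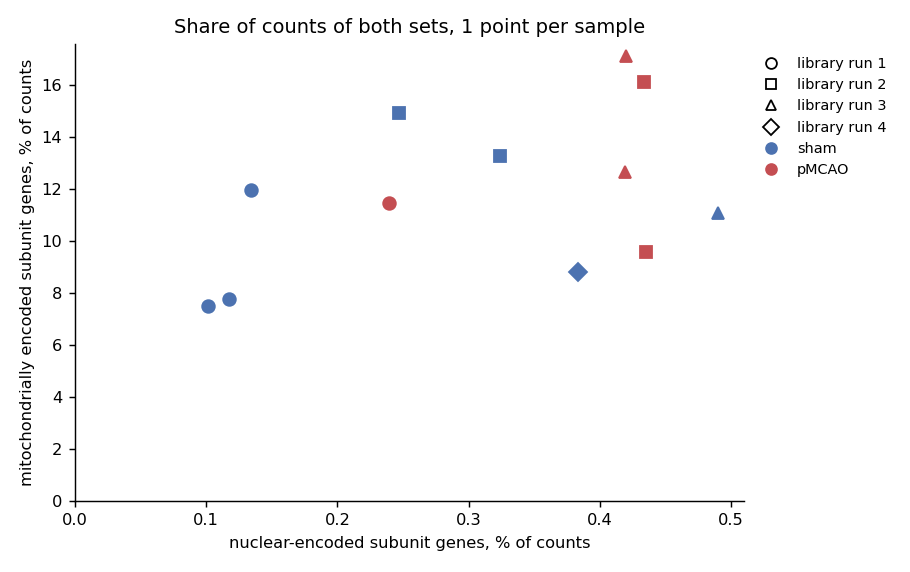
Share of counts in each sample of the 78 nuclear-encoded subunit genes (horizontal axis, %) and of the 13 mitochondrially encoded subunit genes (vertical axis, %), with group as colour and library run as marker shape. The run 1 sham samples lie lowest on the horizontal axis (0.102% to 0.134%), and the pMCAO samples other than replicate 1 lie between 0.419% and 0.435%.

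Other genes of mitochondrial energy metabolism had smaller medians, and no gene of these lists reached an adjusted p of at most 0.05 in limma-voom. For 42 assembly factors, which put the complexes together, the median log2 fold change was 0.26, and 2 had an unadjusted p under 0.05, a share near the 4.66% of all genes. These were Sdhaf3 (1.78, SE 0.59, adjusted p 0.426), an assembly factor of complex II, and Ndufaf7 (1.404, SE 0.52, adjusted p 0.504), one of complex I. Both are low genes, at 0.857 and 1.44 CPM in sham and 2.87 and 3.01 CPM in pMCAO samples on average. For 10 carriers and subunits that the naming rule misses, the median was 0.24, with 7 above 0 and 3 below. Cytochrome c (Cycs) was below 0, at -0.47 (SE 0.27, adjusted p 0.641). In this list 1 gene (Etfa) had an unadjusted p under 0.05. For 13 citric acid cycle enzymes the median was 0.18, with 3 such genes (Suclg1, Idh3g and Suclg2), and for 74 mitochondrial ribosomal proteins 0.20, with 5. All genes of these lists with an unadjusted p under 0.05 were higher in pMCAO. With library run as a covariate the medians were 0.09 for the assembly factors, 0.16 for the carriers, 0.05 for the citric acid cycle and 0.19 for the mitochondrial ribosomal proteins.

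Regulators of mitochondrial biogenesis had a median of 0.29 over 13 genes, and 1, the coactivator Pprc1, had an unadjusted p under 0.05 (1.58, SE 0.73, adjusted p 0.583). The share of all genes that were higher at that threshold was 4.66%. Pprc1 is a low gene, at 1.38 CPM in sham and 2.54 CPM in pMCAO samples on average. Ppargc1a, the main coactivator of the programme, had a log2 fold change of 0.28 (SE 0.43), and the transcription factors Nrf1, Gabpa and Esrra had -0.12 (SE 0.32), -0.20 (SE 0.18) and -0.06 (SE 0.23). The adjusted p of these 4 ran from 0.757 (Gabpa) to 0.959 (Esrra). With library run as a covariate the median of the 13 was 0.04, and 0 of them had an unadjusted p under 0.05. The 82 cytosolic ribosomal proteins, which are not mitochondrial, had a median of 0.53, and 73 were above 0, beside 55.2% of all genes. At an unadjusted p under 0.05, 10 were higher, beside 4.66% of all genes. Sham means of the 82 ran from 0.628 CPM (Rpl24) to 119 CPM (Rpl4), so some lie near the floor. With library run as a covariate the median of the 82 was 0.54. In that fit 41 had an unadjusted p under 0.05, all higher in pMCAO, beside 6.58% of all genes. Within each of runs 1, 2 and 3, 52 were higher, beside 16.9% of all genes. The counts of the 78 subunit genes were 17 and 35, each below that of the ribosomal proteins. The ribosomal proteins too were lower in run 1, with a median difference from the other libraries of -1.05 on the log2 scale against -0.72 for the 78 subunit genes.

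Promoter sequences were read for the genes that RefSeq lists, since subunit genes are known to share binding sites for the factors NRF1 and GABP. In the 250 bases before the start, 64 of the 78 genes matched, and 27025 promoters of all genes served as the background. The letters GCGCANGCG (NRF1, either strand, overlapping matches on both strands counted) were in 13 of the 64 (20.3%), beside 5.33% of all promoters. The letters CCGGAAG (the ETS family, to which GABP belongs) were in 11 (17.2%), beside 7.05%, and TGACGTCA (CRE) in 4 (6.2%), beside 1.62%. AAGATGGCG (YY1) was in 0, beside 0.61%, and CCAAT in 28 (43.8%), beside 34.46%. The median log2 fold change was 0.37 for the 13 genes with the NRF1 letters and 0.42 for the other 51, and 0.45 for the 11 with the ETS letters and 0.42 for the other 53. By complex, the NRF1 letters were in 6 promoters of complex I, 2 of complex II, 0 of complex III, 1 of complex IV and 4 of ATP synthase.

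Parts of 4 of these promoters that lie in no annotated exon are printed here, in the direction of the gene, from RefSeq on GRCm38.p6. Sdhb (chr4:140961021-140961202, plus strand) and Ndufa6 (chr15:82354323-82354541, minus strand) are shown as the genes with the smallest p of complexes II and I, and Cox6a1 (chr5:115348982-115349129, minus strand) and Uqcrh (chr4:116075072-116075268, minus strand) as highly expressed genes of complexes IV and III that hold a match. Capitals mark the letters of the NRF1, ETS, CRE and YY1 searches.
Sdhb: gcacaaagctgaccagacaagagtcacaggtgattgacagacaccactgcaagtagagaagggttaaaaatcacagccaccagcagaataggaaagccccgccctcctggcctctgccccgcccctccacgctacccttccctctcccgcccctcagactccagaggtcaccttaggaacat
Ndufa6: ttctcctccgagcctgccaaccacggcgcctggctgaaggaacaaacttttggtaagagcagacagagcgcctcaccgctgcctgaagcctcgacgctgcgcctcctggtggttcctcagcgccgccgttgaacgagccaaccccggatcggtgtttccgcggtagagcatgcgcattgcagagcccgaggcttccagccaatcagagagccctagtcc
Cox6a1: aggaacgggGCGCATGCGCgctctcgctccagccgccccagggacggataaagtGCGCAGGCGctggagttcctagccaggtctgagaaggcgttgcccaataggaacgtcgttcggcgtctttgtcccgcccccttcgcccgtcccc
Uqcrh: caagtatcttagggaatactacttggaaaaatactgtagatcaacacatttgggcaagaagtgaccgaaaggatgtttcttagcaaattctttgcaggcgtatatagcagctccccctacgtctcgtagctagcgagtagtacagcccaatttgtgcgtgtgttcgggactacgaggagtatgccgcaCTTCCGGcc
Cox6a1 holds 3 NRF1 matches in these bases, of which a pair overlap on opposite strands, and Uqcrh holds 1 ETS match. The stretches of Sdhb and Ndufa6 hold none, which says only that these letters are not in the window. A match in these letters is a description and does not show binding.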

How the data were processed

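Gene expression was measured by RNA sequencing of EpCAM+ epithelial cells of the small intestine, with 7 sham and 5 pMCAO samples grouped by their labels. Per the labels and the methods of the study, ribosomal RNA was removed by a cleavage approach, paired-end reads of 100 bases were aligned to GRCm38 with STAR in the rnasik pipeline (1.5.4), and the authors counted reads per gene with featureCounts. Whole-number counts per gene, as deposited, gave every value here. The deposited CPM columns, the deposited log2 columns and the deposited p-value columns, which hold the authors' own comparison from limma-voom in Degust (4.1.1), were not used. The methods correct for the day of collection, which the labels do not give, so library runs were tried as an alternative.

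Genes were kept with filterByExpr (minimum count 10), which left 14462 genes and removed 1393, and TMM factors were applied. The main test was limma-voom with group as the only term, run in R 4.3.3 with limma 3.58.1 and edgeR 4.0.16. CPM values other than the floor are TMM-scaled, and means of log2 CPM use a prior count of 2. A gene counted as DE only if it also moved by 1 or more on the log2 scale. The tests were checked on simulated data. Alternatives were DESeq2 (1.42.0), the quasi-likelihood test of edgeR, other size factors, no filter, other samples and library run. Positions and lengths came from GENCODE M21. Intervals and floors cover counting error only. The members and lists were chosen with earlier results of these data known. The members named were the core subunits, the 2 genes of smallest p and the highest and lowest level per complex, and isoforms with their partners. Ndufb6, Uqcrh and genes of other lists were named after their values were seen, as were Atp5h, Atp5s and Atp5sl.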

Additional observations from a re-analysis of the deposited data

Results flagged for a closer look

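In 84 sets of samples tested for a single far value, 4 were found, and chance alone gives about 4.2. All 4 concern pMCAO replicate 1, the 1 pMCAO library of library run 1. The 78 subunit genes took 0.2393% of its counts (95% Wilson interval 0.237 to 0.242), against 0.419% to 0.4355% in the other pMCAO samples. The share lay above those of the 3 sham samples of the same run. Its log2 CPM of Cox5a was 4.452, while the 4 others of the group had 5.27 to 5.483, and that of Atp5g1 was 2.605, against 3.793 to 4.096. Its log2 CPM of Cox7a1 was higher, 4.801 against 3.122 to 3.528.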

How the results depend on the processing

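No gene of the 78 reached an adjusted p of at most 0.05 in any alternative run except the fit with the replicate block, with smallest adjusted p values from 0.0633 (DESeq2 with library run) to 0.736 elsewhere. With the replicate block, 6 genes did, beside 2.54% of all genes, and 43 had a higher level at an unadjusted p under 0.05, beside 8.29%. Among them were Cox7b (log2 fold change 1.22, adjusted p 0.0278), Ndufa6 (0.99, 0.0361), Atp5o (0.80, 0.0419) and Atp5a1 (0.73, 0.0454). The numbers do not pair the samples: the correlations of same-numbered samples were 0.398, -0.239, -0.163, 0.163 and 0.0823, and 1 of 5 pMCAO samples was closest to its own number. The count of 11 genes higher at an unadjusted p under 0.05 was 17 with library run as covariate (beside 6.58% of all genes), 3 (with 1 lower) without library run 1 (3.99%), and 7 (5.56%) with library run as covariate and pMCAO replicate 1 dropped, an alternative chosen after seeing the data. It ranged from 5 to 25 when 1 library was left out, with medians of 0.267 to 0.561. In edgeR it was 10 (3.04%) and in DESeq2 8 (3.29%), and with other size factors, without the mitochondrial chromosome or without the filter it was 10 to 12. The median stayed between 0.380 and 0.415 in these. Cox5a reversed without run 1 (-0.018) and with library run and pMCAO replicate 1 dropped (-0.038), as did Ndufa4 (-0.216 and -0.155). The cause was not tested. Atp5g2 had 0 to 3 counts in 7 of the 12 libraries, so depth limits its comparison.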
